A study of Mus musculus with 25 samples.

Results

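The cytosolic ribosomal proteins are the genes whose mouse symbols begin with Rpl or Rps and a number, with the stalk genes (Rplp) and Rpsa. Each was followed by 1 probe set, the one with the highest mean over all 25 arrays among those annotated with a single gene. Of 17097 genes with such a probe set, 70 were members: 45 of the large subunit and 25 of the small subunit, measured by 133 probe sets. The tagged subunit Rpl10a has no probe set with its name in the annotation used and was not analysed here, and neither were some other genes of the rule. Tests, all two-sided, were made on 68 members. Rpl39l and Rps15a had 1 dim probe set each, with log2 values from 3.66 to 4.71 and from 4.17 to 5.06, and fell among the 30% of genes with the lowest mean, which were left out.

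Polysomal RNA of kidney podocytes, the foot-process cells of the glomerular filter, was obtained by translating ribosome affinity purification (TRAP), which pulls down ribosomes through a tagged subunit. All mice were of the C57/129sv background and carried Col1a1-eGFPL10a, a fusion of green fluorescent protein with ribosomal protein L10a under a collagen promoter and enhancer. Control mice (WT) carried only this transgene, and knock-in mice (KI) also carried Actn4tm1.1Plk, a point mutant of the actin crosslinker alpha-actinin-4. The 6 groups were WT and KI at 2 weeks (postnatal day 14), 5 weeks (day 35) and 44 weeks (day 300), with 5 arrays for WT at 5 weeks and 4 for each other group. The number of mutant alleles in KI mice and the animal behind each array were not given in the sources used here; a p-value therefore measures only how these arrays scatter, which may be technical. The tag marks every cell in which the promoter is active.

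A ribosome has a large subunit, which forms the peptide bonds, and a small subunit, which reads the mRNA. Its proteins are needed in matched amounts, and their mRNAs are among the most abundant of a cell. Many begin with a terminal oligopyrimidine tract, an unbroken run of C and U at the 5′ end, through which the mTOR pathway sets how strongly they are translated. A TRAP array reads the mRNA bound to tagged ribosomes, so it does not separate the amount of an mRNA from its occupancy by ribosomes.

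The mean of 9 podocyte markers lay between 11.37 and 12.10 (log2) in every array, and that of 14 proximal tubule markers between 8.68 and 10.46, so RNA of other kidney cells was also present. In such bulk samples fewer cells of a type and less RNA per cell cannot be told apart. WT 5-week array 10 stood apart from the other 4 of its group. Its control probe set for the 5′ end of 18S ribosomal RNA read 9.97, against 8.14 to 8.71 in arrays 6 to 9, and its Gapdh 3′ minus 5′ signal was 1.91, against 0.98 to 1.15. In KI at 5 weeks those measures were 9.64 to 10.52 and 1.28 to 1.67. At 2 weeks they were 8.51 to 9.34 and 1.55 to 1.84 in WT, and 7.56 to 9.74 and 1.06 to 1.45 in KI. At 44 weeks they were 10.78 to 11.36 and 1.26 to 1.62 in WT, and 8.32 to 10.97 and 1.08 to 1.65 in KI. The actin 3′ minus 5′ signal did not set array 10 apart (1.47, in a group that reached 1.63); its mean was 1.52 in WT at 5 weeks and 0.99 to 1.24 in the other 5 groups. A high Y-linked signal was seen in 4 of 4 WT and 1 of 4 KI arrays at 2 weeks, in 2 of 5 and 3 of 4 at 5 weeks, and in 1 of 4 and 3 of 4 at 44 weeks. The main values include array 10, and the values without it stand beside the counts and the leading genes.

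Ribosomal protein mRNAs gave some of the strongest signals. Of the 70 members, 65 had a mean over 11 on the log2 scale, and 65 a mean above the 95th percentile of all genes. The median range of the 6 group means was 0.24 over the 68 members and 0.64 over all 11968 genes tested, and the median within-group SD was 0.09 and 0.26. Signals so near the top of an array's range can be compressed, and most other genes were dimmer, so these medians do not show that the class itself was steadier. The range was under 0.25 in 34 members and over 0.5 in 15. It was smallest for Rps29, a small subunit protein, at 0.06. It was 0.07 for Rps6, the small subunit protein that S6 kinases phosphorylate, and 0.08 for Rpl3, which lies near the peptidyl transferase centre. The widest range, 1.44, was that of Rpl14, a large subunit protein read by a probe set of lower signal. The lowest group mean was that of WT at 5 weeks in 33 members, or 48.5%, against 27.4% of all genes.

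**Figure D1:**
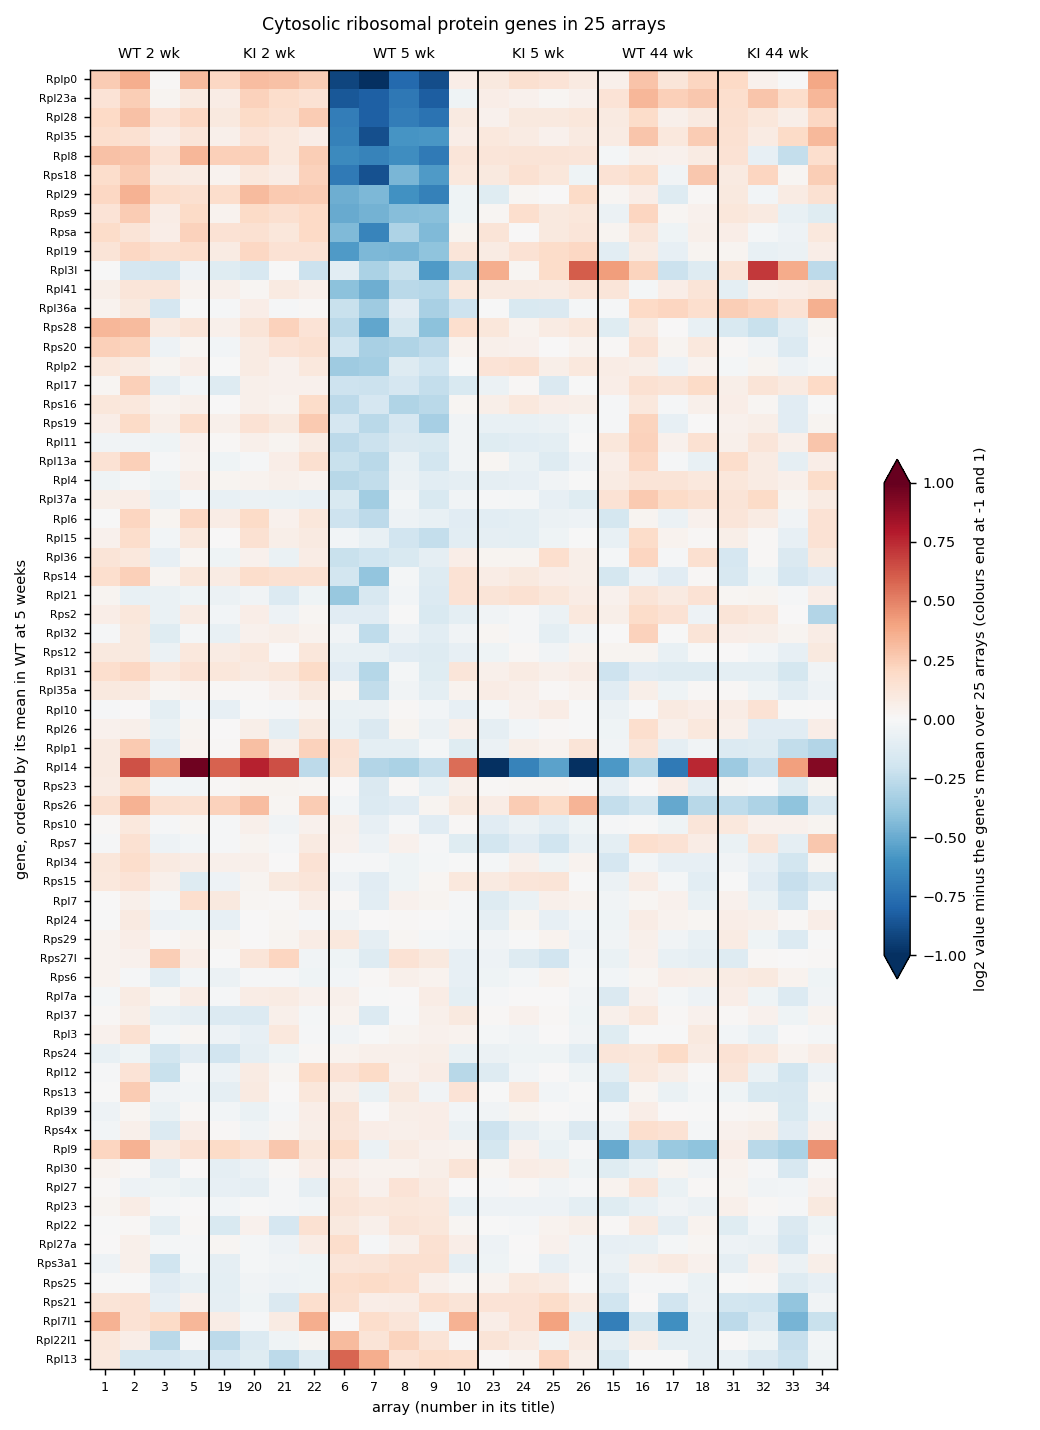
Log2 value of each of the 68 ribosomal protein genes tested (rows, ordered by their mean in WT at 5 weeks) in each of the 25 arrays (columns, by group and title number), as the difference from the gene's mean over all arrays. The upper rows are low in WT 5-week arrays 6 to 9 and not in array 10, the middle rows change little, and Rpl14 varies most, with a range of group means of 1.44.

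Of the 68 members, 34 passed the test in none of the 7 comparisons of groups (limma, Benjamini-Hochberg adjusted p under 0.05 over 11968 genes). At least once 34 of the 68 passed, and 59.4% of all genes did. Of these, 29 passed only in the 3 comparisons that use WT at 5 weeks (42.6% of members and 31.5% of all genes), and 5 in a comparison without it (7.35% and 27.9%). The 5 were Rpl14, Rpl36a, Rpl7l1, Rps21 and Rps26. The comparisons with WT at 5 weeks share its arrays, so their results are not independent of each other.

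In WT, 23 members fell and 1 rose from 2 to 5 weeks, and 44 did not pass. The members called were 35.3%, and percent called among all genes was 33.9, with 21.7 lower and 12.2 higher; the members lower were 33.8%. The median difference was -0.13 over the members and -0.06 over all genes. Of the large subunit genes 15 of 44 fell, and of the small subunit genes 8 of 24 fell. Separation without overlap of the arrays was seen in 22 members, or 32.4%, and in 16.7% of all genes. Markers of other cells moved in the same step: of 8 mesangial markers 7 fell (median -1.34), of 3 red cell markers 2 fell (median -3.15), of 12 endothelial markers 1 rose and 2 fell, and of 9 podocyte markers 7 rose and 1 fell. The mean 18S ribosomal RNA 5′ signal in WT was 8.86 at 2 weeks and 8.74 at 5 weeks. The part of these markers and of this signal in the falls of the members was not tested.

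Rplp0, the base of the stalk that recruits elongation factors to the ribosome, changed most. Its log2 values in WT were 11.58, 11.68, 11.33 and 11.64 at 2 weeks, and 10.41, 10.06, 10.55, 10.44 and 11.39 in arrays 6 to 10 at 5 weeks. In WT at 44 weeks they were 11.37, 11.61, 11.44 and 11.54. Arrays 6 to 9 lay below every other array, while array 10 lay within the range of the 2-week arrays. Rplp0 fell by 0.99 (SE 0.17) from 2 to 5 weeks, a 1.99-fold change (limma adjusted p = 0.000173), and rose by 0.92 (SE 0.17) from 5 to 44 weeks (limma adjusted p = 0.000838). Without array 10 these differences were -1.20 and 1.13. Among its partners on the stalk, Rplp2 fell by 0.27 (SE 0.07) from 2 to 5 weeks (limma adjusted p = 0.00746). The differences of Rplp1 and Rpl12, which complete the stalk, were -0.11 (SE 0.09) and 0.06 (SE 0.10) and did not pass.

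Some genes of the peptide exit tunnel, through which the growing chain leaves the ribosome, also fell. Of the 8 members listed there 5 fell from 2 to 5 weeks, beside 23 of all 68. Rpl23a, which borders the tunnel exit where the signal recognition particle docks, read 12.83, 12.94, 12.72 and 12.78 in WT at 2 weeks and 11.84, 11.87, 11.98, 11.87 and 12.65 in arrays 6 to 10 at 5 weeks. Here too array 10 was apart from arrays 6 to 9, but all 5 arrays lay below those of 2 weeks. It fell by 0.77 (SE 0.12; limma adjusted p = 8.75e-05). All 4 probe sets of Rpl23a were lower at 5 weeks, by -0.51 to -0.77. Rpl35, its neighbour at the exit, read 12.88, 12.87, 12.79 and 12.84 at 2 weeks and 12.04, 11.84, 12.12, 12.13 and 12.79 at 5 weeks. It fell by 0.66 (SE 0.12; limma adjusted p = 0.000432), and its 4 probe sets gave -0.62 to -0.95. Rpl19, also listed at the tunnel, fell by 0.52 (SE 0.10; limma adjusted p = 0.000632), while Rpl39, the small protein that lines it, differed by 0.07 (SE 0.07). Without array 10 the differences were -0.93 for Rpl23a, -0.81 for Rpl35 and -0.64 for Rpl19.

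Other large subunit genes with the same profile were Rpl8, a core protein near the peptidyl transferase centre, and Rpl28 and Rpl29. Rpl8 read 11.90, 11.89, 11.75 and 11.95 in WT at 2 weeks and 10.98, 10.94, 10.99, 10.91 and 11.74 at 5 weeks, and fell by 0.76 (SE 0.13; limma adjusted p = 0.000173). Rpl28 read 12.82, 12.91, 12.76 and 12.82 at 2 weeks and 11.92, 11.80, 11.93, 11.88 and 12.70 at 5 weeks, and fell by 0.78 (SE 0.12; limma adjusted p = 0.000111). In both genes array 10 was the single 5-week array near the 2-week level. Rpl29 fell by 0.67 (SE 0.10; limma adjusted p = 7.16e-05). Rpl3, the other core protein near that centre, differed by -0.04 (SE 0.07), and Rpl10, which joins late in subunit maturation, by -0.01 (SE 0.07). Without array 10 the differences were -0.92 for Rpl8, -0.94 for Rpl28 and -0.78 for Rpl29.

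In the small subunit Rps18, a protein of its head, fell by 0.65 (SE 0.13; limma adjusted p = 0.000857). Its values in WT were 11.91, 11.99, 11.83 and 11.82 at 2 weeks and 11.03, 10.87, 11.28, 11.17 and 11.84 at 5 weeks, so array 10 lay among the 2-week arrays. Rps9, at the mRNA entry channel, fell by 0.53 (SE 0.09; limma adjusted p = 0.000239), and Rpsa, the laminin receptor protein at the mRNA exit side, fell by 0.52 (SE 0.10; limma adjusted p = 0.000479). Rps19, the gene most often mutated in Diamond-Blackfan anaemia, fell by 0.31 (SE 0.08; limma adjusted p = 0.00504). Of the 10 tested genes linked to that anaemia 3 fell, a share near the 33.8% of all members. Without array 10 the differences were -0.80 for Rps18, -0.62 for Rps9, -0.62 for Rpsa and -0.36 for Rps19. Rps6 differed by 0.03 (SE 0.06), with 12.99, 12.94, 12.84 and 12.92 at 2 weeks and 12.93, 12.96, 13.00, 12.99 and 12.87 at 5 weeks, where the arrays overlap.

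**Figure D2:**
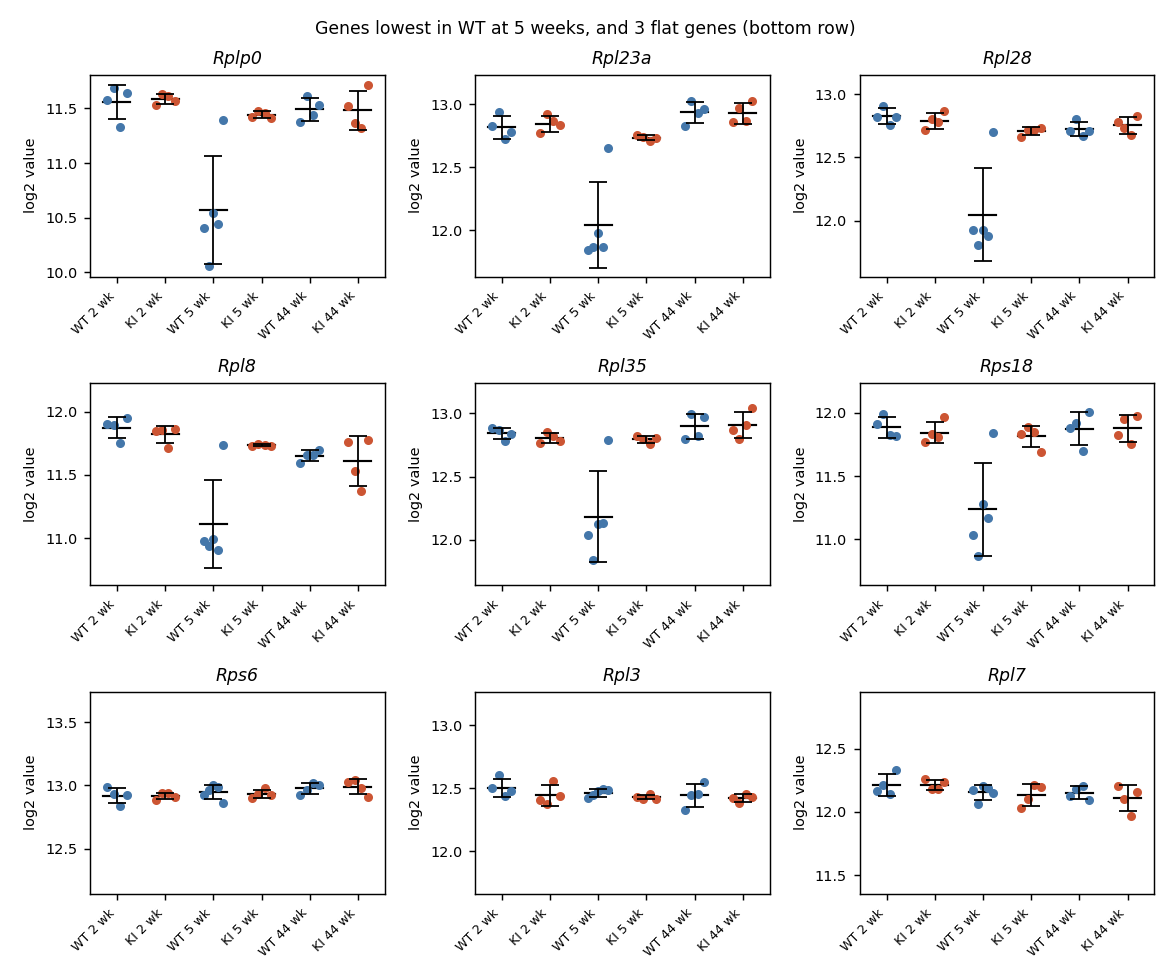
Log2 value per array (points; WT blue, KI red), with the mean and SD of each group (bars), for 6 genes that were lowest in WT at 5 weeks and, in the bottom row, for 3 genes with little change. Each panel has its own log2 axis. In the upper 6 panels 4 of the 5 WT 5-week arrays are low, as for Rpl28 with 11.80 to 11.93. Array 10 is at or near the level of the other groups (12.70 for Rpl28). For Rpl23a array 10, at 12.65, is below all arrays of the other groups.

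The 5′ ends of these genes are shown because the runs of pyrimidines in them mark the class. RefSeq windows (GRCm38.p6) were found for 54 of the 68 members, with 65 annotated starts. Each printed window runs from 30 bases before the start to 19 after it, and capitals mark the longest run of C and T that comes within 10 bases of the start. The first 6 genes were low in WT at 5 weeks.

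Rplp0, chr5:115559437-115559486, plus strand: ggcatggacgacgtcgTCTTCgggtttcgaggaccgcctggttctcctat
Rpl28, chr7:4792935-4792984, plus strand: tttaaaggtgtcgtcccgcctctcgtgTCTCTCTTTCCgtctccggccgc
Rpl35, chr2:39005112-39005161, minus strand: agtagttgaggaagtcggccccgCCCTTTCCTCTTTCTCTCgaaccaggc
Rps18, chr17:33955646-33955695, minus strand: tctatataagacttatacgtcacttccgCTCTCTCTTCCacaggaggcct
Rps9, chr7:3704011-3704060, plus strand: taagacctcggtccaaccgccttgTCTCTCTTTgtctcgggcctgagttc
Rpsa, chr9:120127736-120127785, plus strand: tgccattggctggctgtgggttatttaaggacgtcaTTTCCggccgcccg

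The next 4 genes are among those with the smallest range over the groups.

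Rps6, chr4:86857348-86857397, minus strand: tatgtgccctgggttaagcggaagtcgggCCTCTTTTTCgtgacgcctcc
Rpl39, chrX:37085203-37085252, minus strand: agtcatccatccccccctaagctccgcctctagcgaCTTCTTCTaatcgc
Rps23, chr13:90923092-90923141, plus strand: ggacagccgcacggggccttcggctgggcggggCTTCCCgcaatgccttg
Rpl7a, chr2:26910777-26910826, plus strand: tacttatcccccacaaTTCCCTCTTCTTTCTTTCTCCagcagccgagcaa

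The last 3 changed between 5 and 44 weeks.

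Rps26, chr10:128626487-128626536, minus strand: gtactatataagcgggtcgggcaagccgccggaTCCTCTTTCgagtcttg
Rpl36a, chrX:134585624-134585673, plus strand: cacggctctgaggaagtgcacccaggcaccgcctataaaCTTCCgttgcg
Rpl7l1, chr17:46782637-46782686, minus strand: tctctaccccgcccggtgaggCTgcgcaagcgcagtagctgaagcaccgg

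A run of 8 or more was present at 26 of the 65 member starts, or 40.0%, and at 13.6% of the 32786 starts of other genes. It was found at 9 of 20 starts of members that fell in WT from 2 to 5 weeks and at 17 of 45 starts of the other members. Long runs thus stood both in genes that fell (Rpl35, 18 bases) and in genes that hardly varied (Rpl7a, 21 bases), and Rplp0, with the largest fall, had a run of 5 bases. In the whole 300-base windows the motif CCGGAAG, searched on both strands, was present at 38.5% of member starts and 8.80% of other starts. AAGATGGC, also on both strands, was present at 9.23% and 2.74%. These matches describe letters in a window and say nothing of binding.

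At 5 weeks 17 members were higher and 1 was lower in KI than in WT, and 50 did not pass. The members called were 26.5%, and percent called among all genes was 22.0, with 14.3 higher and 7.75 lower; the members higher were 25.0%. The median difference was 0.07 over the members and 0.06 over all genes. Arrays did not overlap in 9 members, or 13.2%, against 12.0% of all genes. The share of members called was thus near the background, and the sizes were small beyond the leading genes. Large subunit genes were higher in 11 of 44 and lower in 1, and small subunit genes were higher in 6 of 24.

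Rplp0 read 11.42, 11.48, 11.46 and 11.41 in KI at 5 weeks, just above the 11.39 of WT array 10 and well above the 10.06 to 10.55 of arrays 6 to 9. Its difference was 0.88 (SE 0.17), a 1.83-fold excess in KI (limma adjusted p = 0.00282). Rpl23a read 12.76, 12.74, 12.71 and 12.73 in KI, against 11.84 to 11.98 in WT arrays 6 to 9 and 12.65 in array 10, with a difference of 0.69 (SE 0.12; limma adjusted p = 0.00214). The KI arrays of Rpl23a lay within 0.05 of each other, and all were above all WT arrays. Rpl28 read 12.66, 12.71, 12.72 and 12.73 in KI, a range that holds the 12.70 of WT array 10, with a difference of 0.66 (SE 0.12; limma adjusted p = 0.00281). Rpl8 was higher by 0.62 (SE 0.13; limma adjusted p = 0.00366), Rpl35 by 0.61 (SE 0.12; limma adjusted p = 0.00332), Rps18 by 0.58 (SE 0.13; limma adjusted p = 0.00614) and Rpl19 by 0.51 (SE 0.10; limma adjusted p = 0.00332).

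A few members did otherwise. Rpl3l, the striated muscle paralog of Rpl3, had a signal near the dim end of the array, with 5.05, 4.84, 4.93, 4.59 and 4.86 in WT and 5.52, 5.18, 5.34 and 5.76 in KI at 5 weeks. The KI arrays were all above the WT arrays, and the difference was 0.60 (SE 0.16; limma adjusted p = 0.0141). Rpl3 itself differed by -0.04 (SE 0.07). Rpl14 was the single member lower in KI, with 7.39, 7.91, 8.05 and 7.34 against 8.71, 8.29, 8.27, 8.34 and 9.14 in WT. Its difference was -0.88 (SE 0.30; limma adjusted p = 0.0436); leaving out any 1 of WT arrays 6, 7, 9 and 10 or KI arrays 23, 24 and 26 ended that call, with differences from -0.95 to -0.73.

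The calls in KI at 5 weeks depended on the fit. Without array 10, 21 members were higher and 2 lower (33.8% called, against 34.1% of all genes). The differences were then 1.08 for Rplp0, 0.84 for Rpl23a, 0.82 for Rpl28, 0.78 for Rpl8, 0.76 for Rpl35, 0.73 for Rps18 and 0.62 for Rpl19. When only the 9 arrays of the comparison were fitted the differences were the same, since the means were, but the error was estimated from fewer arrays; no member passed in limma, and 500 of all genes did. Without WT arrays 7, 8 and 9 no member and 1 of all genes passed in limma, and Rplp0 differed by 0.54. With the mean of the tubule markers of each array as a covariate no member and 24 of all genes passed in limma, and Rplp0 differed by 0.77. At 36.8% of members and 37.3% of all genes the unadjusted p of the full model was under 0.05. With each array centred on its median, 13 members were higher and 4 lower, and 2759 of all 11968 genes passed.

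Markers of other cells moved in the same comparison. Of 12 endothelial markers 6 were higher in KI at 5 weeks and none lower, and of 10 leukocyte markers 5 were higher. Of 13 proximal tubule markers 3 were higher, of 14 markers of the loop and distal segments 3, and of 8 mesangial markers 4. Of 3 red cell markers 2 were higher (median 1.16), and of 9 podocyte markers 1 was higher and 1 lower. The endothelial mean was 6.95, 5.91, 6.21, 6.41 and 6.82 in WT arrays 6 to 10 and 7.21 to 7.59 in KI. In WT arrays 6 to 10 the tubule mean was 8.52, 7.72, 8.13, 7.92 and 8.52. The mesangial mean was 8.49, 7.12, 7.27, 7.46 and 8.36. Arrays 6 and 10 were higher than arrays 7 to 9 in all of these means. Rplp0 and Rpl28 were low in array 6 and high in array 10. The part of other cells, of RNA quality or of a shared processing step in the differences of the ribosomal protein genes was not tested beyond the covariate fit.

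**Figure D3:**
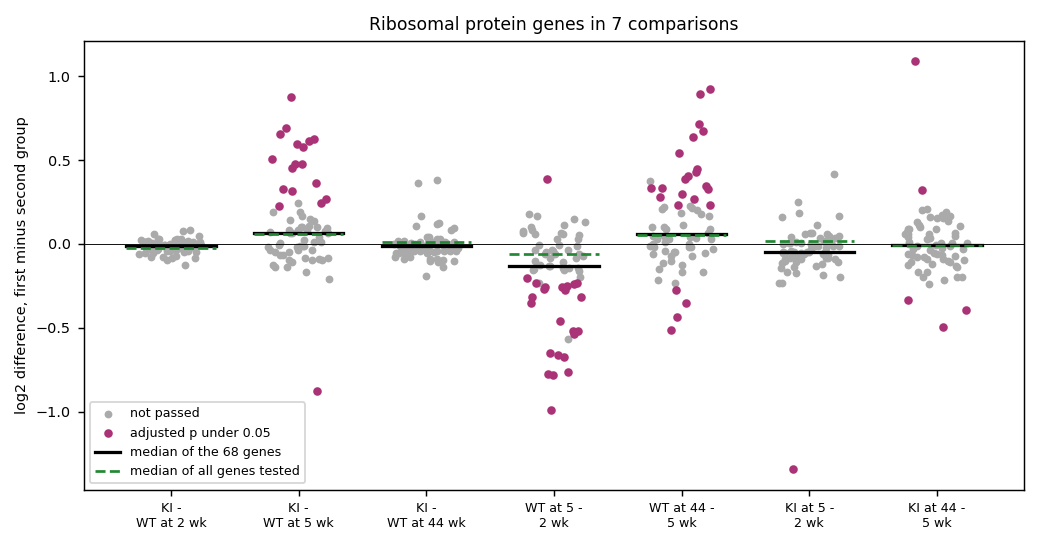
Log2 difference (first minus second group) of each of the 68 ribosomal protein genes in the 7 comparisons of groups; purple points have a limma adjusted p under 0.05, and lines give the medians of the 68 genes and of all 11968 genes. The large shifts are in the 3 comparisons with WT at 5 weeks; the isolated low and high points in the KI age comparisons are Rpl14, at -1.34 and 1.09.

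KI and WT did not differ by the test at the other ages. At 2 weeks no member passed in limma (lowest adjusted p = 0.918), none had an unadjusted p under 0.05 against 5.12% of all genes, and percent called among all genes was 0. No member had arrays without overlap, against 2.90% of all genes. The median difference was -0.01 over the members and -0.02 over all genes. The differences ran from -0.13 for Rpl7l1 to 0.08 for Rpl12. The median SE of a member was 0.08, so differences of that size, or of a few times that size, could be missed after adjustment over all genes. At 44 weeks again no member passed in limma (lowest adjusted p = 0.687), and percent called among all genes was 0.0251, with 0.0167 higher and 0.00836 lower. An unadjusted p under 0.05 was found in 1 member (1.47%), against 6.37% of all genes. This was Rpl9, a large subunit protein, with a difference of 0.36 (SE 0.12) and values of 11.48, 11.74, 11.61 and 11.58 in WT and 12.05, 11.72, 11.66 and 12.43 in KI. KI arrays 31 and 34 were above all WT arrays, and KI arrays 32 and 33 were among them. Arrays did not overlap in 2 members, Rplp1 and Rpl23, or 2.94%, against 2.74% of all genes.

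Whether the KI effect differed between ages was tested directly. In limma no member passed, for 5 against 2 weeks (lowest adjusted p = 0.0941) or for 44 against 5 weeks (lowest adjusted p = 0.0977), and percent called among all genes was 0.0251 and 0. An unadjusted p under 0.05 was found in 17 members (25.0%; all genes 18.7%) and 21 members (30.9%; all genes 19.5%). Rplp0 had differences of 0.85 and -0.88 (SE 0.24 each). Without WT array 10 the counts became 15 (22.1%; all genes 12.7%) and 18 (26.5%; all genes 13.0%). With all arrays and array weights they were also 15 and 18 members, beside 2441 and 2041 of all 11968 genes. Whether any member passed thus depended on such choices.

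From 5 to 44 weeks in WT 19 members rose and 4 fell. Arrays did not overlap in 16 members (23.5%), against 12.1% of all genes. The members called were 33.8%, and percent called among all genes was 20.1, with 11.3 higher and 8.85 lower; the members higher were 27.9%. The median difference was 0.06 over the members and 0.05 over all genes. Other measures moved in the same step: 6 of 14 loop and distal markers and 3 of 10 leukocyte markers rose, the mean 18S ribosomal RNA 5′ signal went from 8.74 to 11.04, and the mean actin 3′ minus 5′ signal from 1.52 to 0.99. Their part in the rises was not tested. Rpl23a rose by 0.89 (SE 0.12; limma adjusted p = 5.66e-05), to 12.83, 13.02, 12.93 and 12.96 at 44 weeks. These arrays lay above all 5 arrays of 5 weeks. Rpl35 rose by 0.71 (SE 0.12; limma adjusted p = 0.00056), Rpl28 by 0.67 (SE 0.12; limma adjusted p = 0.000979) and Rps18 by 0.64 (SE 0.13; limma adjusted p = 0.00236). Without array 10 these 4 rises were 1.05 (Rpl23a), 0.86, 0.84 and 0.79. Rpl11, which sits in the 5S particle and can bind the p53 regulator Mdm2, rose by 0.30 (SE 0.07; limma adjusted p = 0.007), from 12.24 ± 0.08 (SD, n = 5) to 12.53 ± 0.08 (SD, n = 4). Its difference in KI was 0.21 (SE 0.08; limma adjusted p = 0.064).

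The counts of the WT age comparisons also depended on the fit. With only the arrays compared, which leaves every difference as it was, 10 members passed from 2 to 5 weeks, all lower (14.7%, all genes 18.7%), and 1 from 5 to 44 weeks, higher (1.47%, all genes 4.74%). Without WT arrays 7, 8 and 9 the counts were 7, of which 6 were lower (10.3%, all genes 8.28%), and 5, of which 4 were higher (7.35%, all genes 7.11%). Without array 10 they were 27 (39.7%, all genes 39.7%) and 30 (44.1%, all genes 25.9%). With the tubule covariate they were 25 (36.8%, all genes 38.1%) and 13 (19.1%, all genes 8.29%). Centring each array on its median gave 16 lower and 4 higher from 2 to 5 weeks, beside 4024 of all 11968 genes called. From 5 to 44 weeks it gave 12 higher and 10 lower, beside 2437 of all genes called. The balance of rises and falls in the second step thus depends on the scaling.

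Within KI the share of members called was below the background. The error of a gene is shared over all 6 groups, so the scatter of WT at 5 weeks enters these tests too. For Rplp0 the SD was 0.50 in WT at 5 weeks, and 0.04 and 0.03 in KI at 2 and 5 weeks. The counts therefore do not show that members were steadier within KI. From 2 to 5 weeks 1 of 68 members passed (1.47%) while percent called among all genes was 13.7, with 5.40 higher and 8.29 lower. From 5 to 44 weeks 5 passed (7.35%), 2 higher and 3 lower, against 16.8, with 8.11 higher and 8.64 lower. Arrays did not overlap in 18 members (26.5%) from 2 to 5 weeks, against 25.2% of all genes, and in 25 members (36.8%) from 5 to 44 weeks, against 25.8%. The 4 comparisons without WT at 5 weeks hold the 5 members named above. Rps26, at the mRNA exit channel of the small subunit, read 11.38, 11.55, 11.50 and 11.64 in KI at 5 weeks and 11.05, 10.99, 10.90 and 11.14 at 44 weeks. It fell by 0.50 (SE 0.10; limma adjusted p = 0.00183), with no overlap of arrays. In WT it fell by 0.27 (SE 0.09; limma adjusted p = 0.0374), from 11.28, 11.16, 11.19, 11.33 and 11.40 to 11.06, 11.12, 10.79 and 11.02. The WT arrays did not overlap either, but that call was lost when any 1 of arrays 6, 9, 10, 15, 17 and 18 was left out, with differences from -0.30 to -0.20.

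Rpl7l1, a paralog of Rpl7 linked to large subunit assembly, fell in both genotypes from 5 to 44 weeks. In WT it read 10.10, 10.26, 10.21, 10.06 and 10.44 at 5 weeks and 9.41, 9.92, 9.48 and 9.99 at 44 weeks, a fall of 0.52 (SE 0.13; limma adjusted p = 0.00829). In KI it read 10.16, 10.22, 10.49 and 9.99 at 5 weeks and 9.83, 9.95, 9.63 and 9.87 at 44 weeks, a fall of 0.40 (SE 0.14; limma adjusted p = 0.0479). Neither genotype had overlapping arrays, and the genotype effect did not differ between these ages by the test (0.12, SE 0.19; limma adjusted p = 0.755). All 3 probe sets of Rpl7l1 were lower in WT at 44 weeks, by -0.51 to -0.71. The KI call was lost when any 1 of the KI arrays of these ages other than array 26 was left out, with differences from -0.44 to -0.30. Its parent Rpl7 had group means from 12.11 to 12.21.

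Rpl36a, a large subunit protein at the exit site of tRNA, rose in both genotypes. It read 11.78, 11.64, 11.89, 11.68 and 11.79 in WT at 5 weeks and 11.99, 12.20, 12.22 and 12.17 at 44 weeks, a rise of 0.39 (SE 0.08; limma adjusted p = 0.00225). In KI it read 12.00, 11.85, 11.86 and 11.98 and then 12.25, 12.22, 12.15 and 12.36, a rise of 0.32 (SE 0.08; limma adjusted p = 0.0131). No 5-week array reached the 44-week arrays of its genotype, and array 10 read 11.79, within its group. Rps21, a small subunit protein, fell in KI by 0.34 (SE 0.09; limma adjusted p = 0.0145), from 12.29 to 12.39 over the arrays of 5 weeks to 11.81 to 12.18 at 44 weeks. Without KI array 33 its adjusted p in limma was 0.0623. In WT its difference was -0.23 (SE 0.09; limma adjusted p = 0.0582).

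Rpl14 varied most. It read 8.67, 9.22, 9.01 and 9.56 in WT and 9.17, 9.35, 9.22 and 8.32 in KI at 2 weeks. In KI it then read 7.39, 7.91, 8.05 and 7.34 at 5 weeks and 8.21, 8.35, 8.99 and 9.50 at 44 weeks. It fell by 1.34 (SE 0.32; limma adjusted p = 0.00794) and rose by 1.09 (SE 0.32; limma adjusted p = 0.0247), with no overlap in either step. The second call was lost without KI array 23, 26, 33 or 34, with differences from 0.85 to 1.01. This gene is read by 1 probe set with a mean of 8.58, and other probe sets that carry its name together with the pseudogene Rpl14-ps1 were not used.

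**Figure D4:**
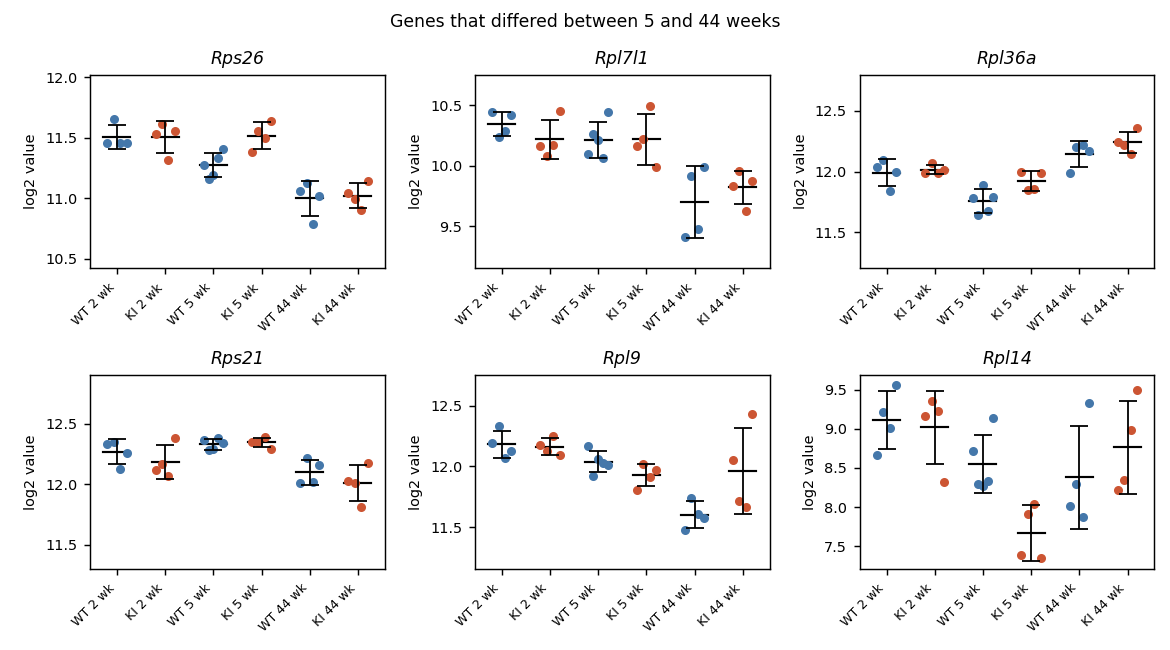
Log2 value per array (points; WT blue, KI red), with the mean and SD of each group (bars), for 6 genes that passed in a comparison of 44 with 5 weeks. Each panel has its own log2 axis. Rps26 and Rpl7l1 are lower and Rpl36a is higher at 44 than at 5 weeks in both genotypes, Rpl9 differs by -0.44 in WT and 0.04 in KI, and Rpl14 is lowest in KI at 5 weeks.

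A few members moved otherwise in WT. Rpl13, a large subunit protein, rose in WT from 2 to 5 weeks by 0.38 (SE 0.09; limma adjusted p = 0.00294) and fell by 0.35 (SE 0.09; limma adjusted p = 0.0105) to 44 weeks, with 12.68, 12.47, 12.25, 12.29 and 12.27 in arrays 6 to 10. Its other probe set gave -0.21 and 0.11, so the direction depends on the probe set. Rpl9 fell by 0.44 (SE 0.12; limma adjusted p = 0.013) in WT from 5 to 44 weeks. Its difference in KI was 0.04 (SE 0.12), and the test of the change in genotype effect did not pass (0.47, SE 0.17; limma adjusted p = 0.15). Array 10 was the lowest of its group for Rpl12 (11.72, against 12.04 to 12.19 in arrays 6 to 9) and Rpl23 (12.39, against 12.57 to 12.60). It was the highest of its group in 35 of 68 members, or 51.5%, and in 30.6% of all genes.

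Of 4 paralogs tested, Rpl3l and Rpl7l1, described above, passed in at least 1 comparison. Group means ran from 11.11 to 11.37 for Rpl22l1 and from 11.90 to 12.06 for its parent Rpl22. They ran from 11.23 to 11.43 for Rps27l, a p53 target. None of these 3 genes passed in any comparison of the main fit. Without array 10, Rpl22l1 was lower in WT at 44 than at 5 weeks by -0.26 (limma adjusted p = 0.0437). A further probe set of Rpl22 did pass, with 0.41 in WT from 2 to 5 weeks, -0.72 from 5 to 44 weeks and -0.51 in KI against WT at 5 weeks. The X-linked Rps4x had group means from 11.98 to 12.16, Rpl10 from 12.71 to 12.81 and Rpl39 from 12.30 to 12.39. In 31 members with more than 1 probe set above the dimness limit, all probe sets had the same sign in 19 for WT at 5 against 2 weeks, in 24 for WT at 44 against 5 weeks and in 20 for KI against WT at 5 weeks. The chosen probe set of 56 members ends in _a, _s or _x, suffixes of probes shared between transcripts. With _a, as for Rpl23a, Rpl28, Rpl8 and Rpl29, these are transcripts of the same gene. Rpl35 and Rps18 were read by _x and Rps9 by _s probe sets, to which that statement does not extend. The suffixes were not examined apart. Near-identical copies of ribosomal protein genes, including many pseudogenes, can add to the signals of this class. With only the 24 members that have a probe set without these suffixes, 4 fell from 2 to 5 weeks in WT. At 5 weeks 4 of them were higher and 1 lower in KI. Of all 10683 genes of that fit, 3263 passed from 2 to 5 weeks in WT and 2018 in KI against WT at 5 weeks.

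The other genes of translation are given as counts, to be read beside the shares of all genes: 12.2% higher and 21.7% lower in WT from 2 to 5 weeks, 11.3% and 8.85% from 5 to 44 weeks, and 14.3% and 7.75% in KI at 5 weeks. Rpl36al, a copy of Rpl36a outside the member rule, fell in WT by 0.64 from 2 to 5 weeks, rose by 0.77 to 44 weeks and was higher in KI at 5 weeks by 0.58 (limma adjusted p = 0.000414, 0.000176 and 0.00352). Its group mean was 11.43 ± 0.32 (SD, n = 5) in WT at 5 weeks and between 12.01 and 12.20 in the other 5 groups. Of 8 tested elongation factors 1 rose and 2 fell in WT from 2 to 5 weeks. Eef2, which moves the ribosome along the mRNA, fell by 0.43 and Eif5a, which helps it through stalling sequences, rose by 0.34 (limma adjusted p = 0.00168 and 0.0026). Of 30 initiation factors 4 rose and 9 fell. Among these Eif3d, a cap-binding subunit of the eIF3 complex, fell by 0.81, and at 5 weeks it was higher in KI by 1.26 (limma adjusted p = 0.00294 and 0.00111).

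Of 47 ribosome biogenesis factors tested, 8 rose and 4 fell in WT from 2 to 5 weeks, and 9 were higher and 9 lower in KI at 5 weeks. From 5 to 44 weeks 2 rose and 9 fell in WT, with Nip7, a large subunit assembly factor, falling by 0.79 and Ubtf, a transcription factor of the ribosomal RNA genes, by 0.64 (limma adjusted p = 0.000838 and 0.000477). Of 8 tested genes with a terminal oligopyrimidine tract or a link to the ribosome, 2 rose and 1 fell in WT from 2 to 5 weeks. Npm1, the nucleolar chaperone nucleophosmin, was lower in KI at 5 weeks by -0.50 (limma adjusted p = 0.00852). In KI from 5 to 44 weeks 2 biogenesis factors rose and 3 fell.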

How the data were processed

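The authors deposited log2 values for 45141 probe sets of an Affymetrix mouse array with perfect-match probes only. Their normalization method was not stated in the labels; array medians were 4.82 to 4.99. Gene symbols came from the platform's annotation table, updated through Entrez identifiers (99.3% found): 28898 had 1 symbol, 551 several, and 15692 were not in it. The highest-mean probe set per gene was kept, and genes under 4.603 were left out.

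A limma model (limma 3.58.1, R 4.3.3) was fitted to 6 group means over 25 arrays (19 residual and 3.05 prior degrees of freedom), checked on simulated data. All p-values are two-sided and adjusted over 11968 genes. The number of arrays limits the precision. Members and lists were chosen with earlier results of these data known. In each comparison up to 8 rises and 8 falls that passed were named, or the 3 smallest p each way, with fixed genes (stalk, 5S particle, Rps6, Rps19, Rpsa, paralogs), and in the other lists up to 3 genes by p each way; Rps29, Rpl7a and Rps23 were chosen after their values were seen. Alternatives were other scaling, filters, probe sets, array weights, covariates for tubule markers and sex, and arrays left out.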

Additional observations from a re-analysis of the deposited data

Results flagged for a closer look

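Tests for an array far from the rest of its group covered 37 named members and the mean of all 68 tested members, in 6 groups. Of these 228 tests 16 were positive, and chance gives about 1 in 20. Several concern WT 5-week array 10. It was high for Rpl23a (12.65), Rpl28 (12.70), Rpl8 (11.74), Rpl19 (12.86) and Rps9 (12.00), and low for Rpl23 (12.39). In WT at 2 weeks array 5 was high for Rpl11 (12.44), array 1 for Rpl13 (12.21), array 2 for Rps26 (11.65) and array 3 for Rps27l (11.58), while array 3 was low for Rpl10 (12.65). In KI at 2 weeks array 21 was low for Rpl8 (11.71). In KI at 5 weeks array 26 was low for Rpl23 (12.37), 0.04 below the others. In WT at 44 weeks array 16 was high for Rpl22l1 (11.27), and in KI at 44 weeks array 31 was low for Rps27l (11.20) and array 33 for Rps4x (11.99).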

How the results depend on the processing

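Counts of members that passed are given as the main count and then the alternative. With only the arrays compared they went from 18 to 0 (KI against WT at 5 weeks), from 24 to 10 (WT at 5 against 2 weeks) and from 23 to 1 (WT at 44 against 5 weeks); without WT arrays 7, 8 and 9 to 0, 7 and 5. Probe sets without a shared suffix gave 5, 4 and 6 of 24 tested, where fewer genes could pass. Of all 10683 genes of that fit 2018, 3263 and 1848 passed. The tubule covariate gave 0 for the first and 13 for the third. For KI at 5 against 2 weeks the count went from 1 to 3 with the mean of all probe sets (1638 of all genes). It was 2 without shared suffixes (1353 of 10683 genes) and 5 with array weights (3176 of 11968 genes). For KI at 44 against 5 weeks it went from 5 to 8 with the mean of all probe sets (2058 of all genes). With array weights it was 11 (3478 of all genes). Array weights gave 15 and 18 for the changes of genotype effect, from 0 each (2441 and 2041 of all 11968 genes). Leaving out 1 array gave 13 to 23, 18 to 27 and 18 to 30 for the first 3 comparisons, 1 for KI at 5 against 2 weeks, 2 to 4 for KI at 44 against 5 weeks (2 without KI array 33, 3 without KI array 23 or 34), 0 for KI against WT at 2 and at 44 weeks, and 0 to 15 and 0 to 18 for the changes of genotype effect. The cause was not tested. No call of a named member turned into one of the opposite sign under these settings. The calls of the other members were not checked for this. Signs differed between the probe sets of some members, as given above, among them Rpl13. No paired analysis was possible because each array's title number is its own and is shared by no other group. Quantile normalization kept 16 of 18, 24 of 24 and 23 of 23 calls of the first 3 comparisons, and centring arrays on their median kept 14, 17 and 16.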
